A study of Rattus norvegicus with 8 samples.

Results

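Acan encodes the core protein of aggrecan, the large proteoglycan of cartilage, and Hapln1 encodes link protein. Every probe set that the platform annotation ties to Acan alone or to Hapln1 alone was taken, whatever its value, which gave 2 of the 14217 genes that single-symbol probe sets represent. Acan was read by 2 probe sets, 1387355_at and 1368836_a_at, and Hapln1 by 3, 1370125_at, 1384541_at and 1386310_at. The annotation bases 1368836_a_at and 1370125_at on RefSeq transcripts and the other 3 on expressed sequence tags. For each gene the probe set of highest mean level, 1387355_at for Acan and 1370125_at for Hapln1, is named the main probe set, and the others are given beside it.

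The data came from 8 Affymetrix RAT230_2.0 arrays, hybridized with total RNA of primary chondrocytes from Sprague Dawley rats aged 1 day, taken from the condyles of the femur and grown as monolayers. After a night without serum, all cultures received either DMSO, the vehicle, or U0126, an inhibitor of the kinase MEK, for 30 minutes, and then either the bovine serum albumin vehicle or TNFα at 30 ng/ml for 24 hours. This gave 4 treatments, named DMSO, U0126, TNFα (with DMSO pretreatment) and U0126 + TNFα, with 2 biological replicates each, from independent experiments 1 and 2. The labels do not say which animals each culture came from. The fit takes out the level difference between experiments. The p-values for treatments therefore measure how evenly treatment differences repeated over these 2 experiments, and not the spread between animals.

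Aggrecan carries chains of chondroitin sulfate that draw water into cartilage and let it resist compression. Its amino-terminal globular region binds hyaluronan, and link protein binds both partners and holds the aggregate together in the matrix. TNFα, an inflammatory cytokine of arthritic joints, signals in part through MEK and its substrate ERK, and Egr-1 is a zinc finger transcription factor encoded by a gene that responds to this pathway. The comparisons address whether TNFα lowered the 2 transcripts and whether it did so when MEK was inhibited.

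The 250 bases that precede each annotated transcription start, on the forward strand of the GRCr8 assembly in RefSeq, are printed because they are where the Egr-1 type of binding motif was looked for. The Acan sequence lies at chr1:142390701-142390950 and the Hapln1 sequence at chr2:22366717-22366966, with each gene beginning at the next base, and capitals mark matches to the motifs named below.
Acan: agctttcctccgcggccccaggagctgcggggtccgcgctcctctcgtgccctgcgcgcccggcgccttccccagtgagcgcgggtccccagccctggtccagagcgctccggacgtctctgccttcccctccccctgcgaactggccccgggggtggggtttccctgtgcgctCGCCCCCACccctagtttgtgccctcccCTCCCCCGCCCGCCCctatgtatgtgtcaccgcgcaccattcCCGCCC
Hapln1: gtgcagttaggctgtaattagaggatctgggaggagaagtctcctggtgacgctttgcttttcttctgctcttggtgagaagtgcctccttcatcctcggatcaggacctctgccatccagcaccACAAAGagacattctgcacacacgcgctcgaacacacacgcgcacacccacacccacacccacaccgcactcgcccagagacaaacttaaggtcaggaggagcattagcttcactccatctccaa

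These promoters differed in composition. The Acan sequence was 73.6% G or C with 24 CpG dinucleotides, a GC content above that of 95.5% of the 33469 promoters in the table. The Hapln1 sequence was 54.0% G or C with 9 CpG dinucleotides, above 58.2% of promoters. Motifs were sought on both strands. An exact Egr consensus, GCGTGGGCG or GCGGGGGCG, was in neither sequence and in 2.85% of promoters. With 1 mismatch allowed it was found at 2 places upstream of Acan, 76 to 68 and 48 to 40 bases before the start and read on the reverse strand (CGCCCCCAC and CTCCCCCGC as printed), at 0 upstream of Hapln1, and in 22.1% of promoters. The GC box core of Sp1, GGGCGG, was found at 3 places upstream of Acan, of which that at 43 to 38 bases overlapped the second Egr-type match and that at 39 to 34 bases, at 0 upstream of Hapln1, and in 30.5% of promoters. The Sox-type letters ACAAAG or ACAATG or TCAAAG or TCAATG were found at 1 place upstream of Hapln1, 125 to 120 bases before the start, at 0 places upstream of Acan, and in 39.95% of promoters. TATAAA was in neither and in 12.9% of promoters. A letter match says nothing of binding.

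Cultures were bright for both genes in every array. The values below are intensities, a linear and unitless measure of probe brightness, scaled to an equal median of 369.7 on each array, and with 2 arrays a treatment their precision is low. Ranks among probe sets serve here to say that a transcript was detected, since levels of different probe sets are not comparable. Acan and Hapln1 probe sets lay above 88.3% to 99.8% of all probe sets, depending on probe set and array. Of 8 chondrocyte markers, 6 were represented, and these lay above 98.4% to 99.95% of probe sets, with the type II collagen gene Col2a1 between 24282 and 32104. The 7 fibroblast markers lay above 56.3% (Dpt) to 99.99% (Col1a1) of probe sets, and the 10 macrophage markers above 8.25% (Cd163) to 73.6% (Cd14, 849 to 1660), with Ptprc at 60.6 to 69.7. The 5 endothelial markers represented lay above 13.2% (Pecam1, 72.7 to 80.4) to 42.6% (Tek) of probe sets. The 5 smooth muscle markers lay above 28.4% (Cnn1) to 96.9% (Tagln), with Acta2 at 93.9%, and the 5 hypertrophic and osteoblast markers represented above 4.06% (Ibsp, 31.8 to 40.4) to 65.5% (Alpl, 536 to 889), with Col10a1 at 160.1 to 175.7. Bright markers were thus found in the fibroblast and smooth muscle lists as well as among chondrocyte genes.

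Acan intensity was lowest with TNFα in both experiments, and was not lowered to that level when U0126 preceded TNFα. On the main Acan probe set, the intensity was 21577 in experiment 1 and 11287 in experiment 2 with DMSO, 14421 and 7741 with TNFα, 23393 and 13509 with U0126, and 23017 and 12442 with U0126 + TNFα. Within either experiment the order was TNFα, DMSO, U0126 + TNFα and U0126 from low to high, but the treatments overlapped when the experiments were pooled, since every array of experiment 1 was above every array of experiment 2. On 1368836_a_at the values were 19744 and 8333 with DMSO, 12091 and 5824 with TNFα, 21754 and 10646 with U0126, and 21710 and 10194 with U0126 + TNFα. The order was the same in both experiments.

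Hapln1 followed a like course with more spread between experiments. On the main Hapln1 probe set, the intensity was 21181 and 7810 with DMSO, 13427 and 5784 with TNFα, 20940 and 9851 with U0126, and 19216 and 8911 with U0126 + TNFα. TNFα was lowest in both experiments, but the order of the other treatments differed, DMSO being the highest of the 4 in experiment 1 and the second lowest in experiment 2. On 1384541_at the values were 9441 and 4158 with DMSO, 6056 and 2737 with TNFα, 9821 and 5261 with U0126, and 7881 and 4554 with U0126 + TNFα. On 1386310_at they were 7187 and 4051 with DMSO, 4215 and 2342 with TNFα, 8362 and 4599 with U0126, and 5928 and 3621 with U0126 + TNFα. Over the 5 probe sets and 2 experiments, TNFα gave the lowest of the 4 values in 10 of 10 cases and U0126 the highest in 9 of 10. U0126 + TNFα was above DMSO in 4 of 4 cases for Acan and in 2 of 6 for Hapln1.

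**Figure D1:**
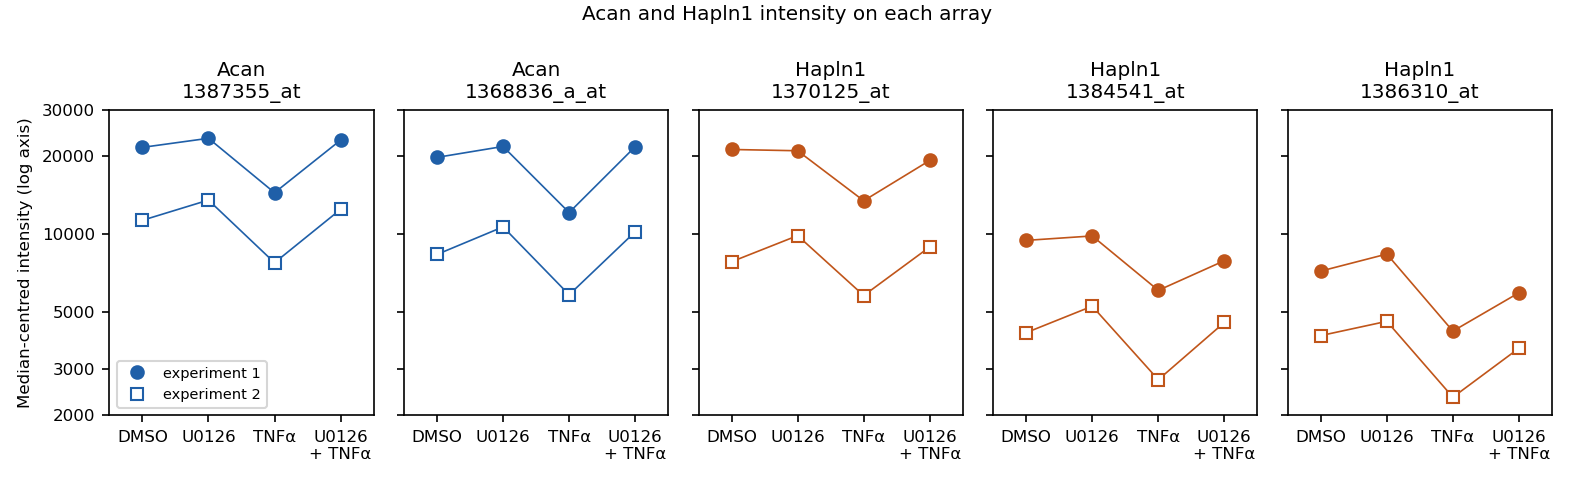
Median-centred intensity (log axis) of the 2 Acan probe sets (blue) and the 3 Hapln1 probe sets (orange) in each of the 8 arrays, by treatment, with lines joining the arrays of an experiment (filled circles, experiment 1; open squares, experiment 2). TNFα is the lowest point of each line, and experiment 1 lies above experiment 2 in every treatment.

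TNFα lowered both transcripts. On the main probe set, Acan fell to 0.668-fold in experiment 1 and 0.686-fold in experiment 2, relative to DMSO, a log2 difference of -0.56 (SE 0.06, 95% interval -0.72 to -0.41, adjusted p = 0.0064), where p is from limma with the experiment as a block and adjusted by Benjamini-Hochberg over all 31042 probe sets. On 1368836_a_at Acan fell to 0.612-fold and 0.699-fold (log2 -0.61, SE 0.07, limma adjusted p = 0.00751). Because these were bulk cultures, fewer cells making the transcript and less transcript in each cell cannot be told apart. All 5 probe sets passed, against a background of 1.78% of probe sets called lower and 3.41% called higher.

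Hapln1 fell to 0.634-fold and 0.741-fold of DMSO on its main probe set (log2 -0.55, SE 0.09, 95% interval -0.77 to -0.32, limma adjusted p = 0.0263). It fell to 0.641-fold and 0.658-fold on 1384541_at (log2 -0.62, SE 0.11, limma adjusted p = 0.0246), and to 0.587-fold and 0.578-fold on 1386310_at (log2 -0.78, SE 0.07, limma adjusted p = 0.00234). The 3 probe sets of Hapln1 thus gave unequal sizes of fall in the same direction, and the differences between probe sets were not tested. Between 0.251% and 0.812% of all probe sets had a log2 difference below that of a given Acan or Hapln1 probe set. Both Acan probe sets kept their call when any single array was left out (adjusted p up to 0.0499 on the main one), whereas the call of the main Hapln1 probe set ended without the experiment 1 DMSO array (log2 -0.39, adjusted p = 0.0796), either TNFα array (adjusted p = 0.119 and 0.079) or either U0126 + TNFα array (adjusted p = 0.0549). That of 1384541_at ended without any single DMSO, U0126 or TNFα array (adjusted p between 0.0503 and 0.0956), with a log2 difference of -0.50 to -0.74. With no replicate block the calls of the main probe sets ended (adjusted p = 0.732 for Acan and 0.82 for Hapln1), as they did in a fit of only the 4 arrays compared (adjusted p = 0.0514 and 0.0772).

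In cells pretreated with U0126, little of the fall was seen for Acan and part of it for Hapln1. Against U0126 alone, Acan with U0126 + TNFα was at 0.984-fold and 0.921-fold on the main probe set (log2 -0.07, 95% interval -0.22 to 0.08, limma adjusted p = 0.718) and at 0.998-fold and 0.958-fold on 1368836_a_at (log2 -0.03, 95% interval -0.21 to 0.14, limma adjusted p = 0.902). Both intervals lay above those of the log2 differences measured without U0126 (-0.72 to -0.41 and -0.79 to -0.44). The direct test of this difference, given below, did not pass after adjustment (limma adjusted p = 0.499 on both). Hapln1 was at 0.918-fold and 0.905-fold on the main probe set (log2 -0.13, 95% interval -0.36 to 0.09, limma adjusted p = 0.63) and at 0.802-fold and 0.866-fold on 1384541_at (log2 -0.26, 95% interval -0.51 to -0.01, limma adjusted p = 0.375). On 1386310_at Hapln1 fell to 0.709-fold and 0.788-fold (log2 -0.42, 95% interval -0.58 to -0.26, limma adjusted p = 0.0404). This was 1 of 5 probe sets, against 0.406% of all probe sets called lower in this comparison and 0.831% called higher. The call ended without either DMSO array (adjusted p = 0.0645), either U0126 array (adjusted p = 0.312 and 0.21) or either U0126 + TNFα array (adjusted p = 0.245 and 0.163).

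Expressed as the share of the log2 fall that remained with U0126, Acan kept 12.6% on the main probe set, at 4.02% and 21.8% in the experiments, and 5.35% on 1368836_a_at, at 0.409% and 12.1%. Hapln1 kept 24.6% on the main probe set (18.8% and 33.4%), 42.3% on 1384541_at (49.6% and 34.5%) and 53.9% on 1386310_at (64.5% and 43.6%). Within either experiment each Hapln1 probe set kept a larger share than both Acan probe sets, and the difference between the genes was not tested.

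Measured against TNFα alone, transcripts were higher when U0126 preceded the cytokine. This comparison shares its TNFα arrays with that of TNFα against DMSO. Acan was 1.60-fold and 1.61-fold higher on the main probe set (log2 0.68, SE 0.06, 95% interval 0.53 to 0.83, limma adjusted p = 0.0215) and 1.80-fold and 1.75-fold higher on 1368836_a_at (log2 0.83, SE 0.07, limma adjusted p = 0.016). Hapln1 rose 1.41-fold and 1.55-fold on 1386310_at (log2 0.56, SE 0.07, limma adjusted p = 0.0397). Its main probe set stood at 1.43-fold and 1.54-fold (log2 0.57, SE 0.09, limma adjusted p = 0.0829) and 1384541_at at 1.301-fold and 1.66-fold (log2 0.56, SE 0.11, limma adjusted p = 0.101), and neither passed. The 3 of 5 calls stand against 0.129% of all probe sets called higher and 0.126% called lower. The main Acan call ended without either U0126 array (adjusted p = 0.0547), the experiment 1 TNFα array (adjusted p = 0.0643) or either U0126 + TNFα array (adjusted p = 0.214 and 0.269), and that of 1386310_at ended without any single array (adjusted p between 0.0591 and 0.377). The call of 1368836_a_at ended without the experiment 1 TNFα array (adjusted p = 0.0607) or either U0126 + TNFα array (adjusted p = 0.203 and 0.239). The log2 differences stayed between 0.67 and 0.69 on the main Acan probe set when an array was left out.

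The test of the difference itself, the TNFα response with U0126 minus that without it, gave log2 differences of 0.49 (95% interval 0.28 to 0.71) and 0.58 (0.33 to 0.83) for the Acan probe sets 1387355_at and 1368836_a_at. For Hapln1 they were 0.41 (0.09 to 0.73) on 1370125_at, 0.36 (0.004 to 0.71) on 1384541_at and 0.36 (0.14 to 0.58) on 1386310_at. All 5 had an unadjusted limma p under 0.05, from 0.000862 to 0.0479, and 0 of 5 passed after adjustment (adjusted p from 0.499 to 0.543). The background was 0% of probe sets called, with 2833 of 31042 at an unadjusted p under 0.05. A higher value was found in 0.258% and 0.087% of all probe sets for Acan and in 0.699% to 1.31% for Hapln1.

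**Figure D2:**
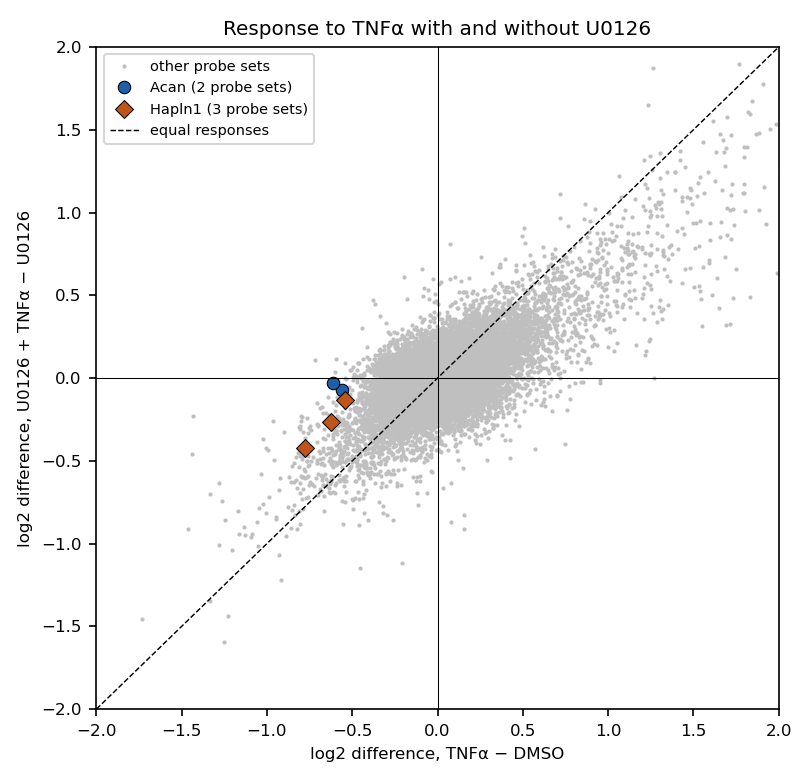
Log2 difference of TNFα against DMSO (x axis) and of U0126 + TNFα against U0126 (y axis) for each probe set in grey, with Acan (blue circles) and Hapln1 (orange diamonds), and 58 probe sets outside the range shown. These comparisons share no arrays, and the 5 marked points lie between -0.55 and -0.78 on the x axis and between -0.03 and -0.42 on the y axis, all above the dashed line of equal responses.

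U0126 without TNFα left both genes near or slightly above the DMSO level. Acan stood at 1.08-fold and 1.20-fold on the main probe set (log2 0.19, 95% interval 0.03 to 0.34, limma adjusted p = 0.321) and at 1.10-fold and 1.28-fold on 1368836_a_at (log2 0.25, 95% interval 0.07 to 0.42, limma adjusted p = 0.291). Hapln1 stood at 0.989-fold and 1.26-fold on the main probe set (log2 0.16, 95% interval -0.07 to 0.38, limma adjusted p = 0.491), at 1.04-fold and 1.27-fold on 1384541_at, and at 1.16-fold and 1.14-fold on 1386310_at. By limma 0 of the 5 passed, 3 had an unadjusted p under 0.05, and 9 of 10 within-experiment values were above DMSO. The background was 0.058% of probe sets called higher, so that few probe sets of any gene passed in this comparison.

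With U0126 + TNFα against DMSO, 0 of 5 probe sets passed by limma and 2 had an unadjusted p under 0.05, where 2.17% of all probe sets were called higher and 0.954% lower. Acan was at 1.07-fold and 1.10-fold (log2 0.12, 95% interval -0.04 to 0.27, limma adjusted p = 0.327) on the main probe set and at 1.10-fold and 1.22-fold on 1368836_a_at (log2 0.21, 95% interval 0.04 to 0.39, limma adjusted p = 0.159). Hapln1 was at 0.907-fold and 1.14-fold on the main probe set (log2 0.02, 95% interval -0.20 to 0.25, limma adjusted p = 0.902), at 0.835-fold and 1.10-fold on 1384541_at (log2 -0.06), and at 0.825-fold and 0.894-fold on 1386310_at (log2 -0.22, 95% interval -0.38 to -0.06, limma adjusted p = 0.129). The probe sets of Hapln1 therefore did not share a direction here. As for order, TNFα was lowest and differed from DMSO in all 5 probe sets and from U0126 + TNFα in 3, while no pair among DMSO, U0126 and U0126 + TNFα passed by limma except U0126 and U0126 + TNFα on 1386310_at.

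**Figure D3:**
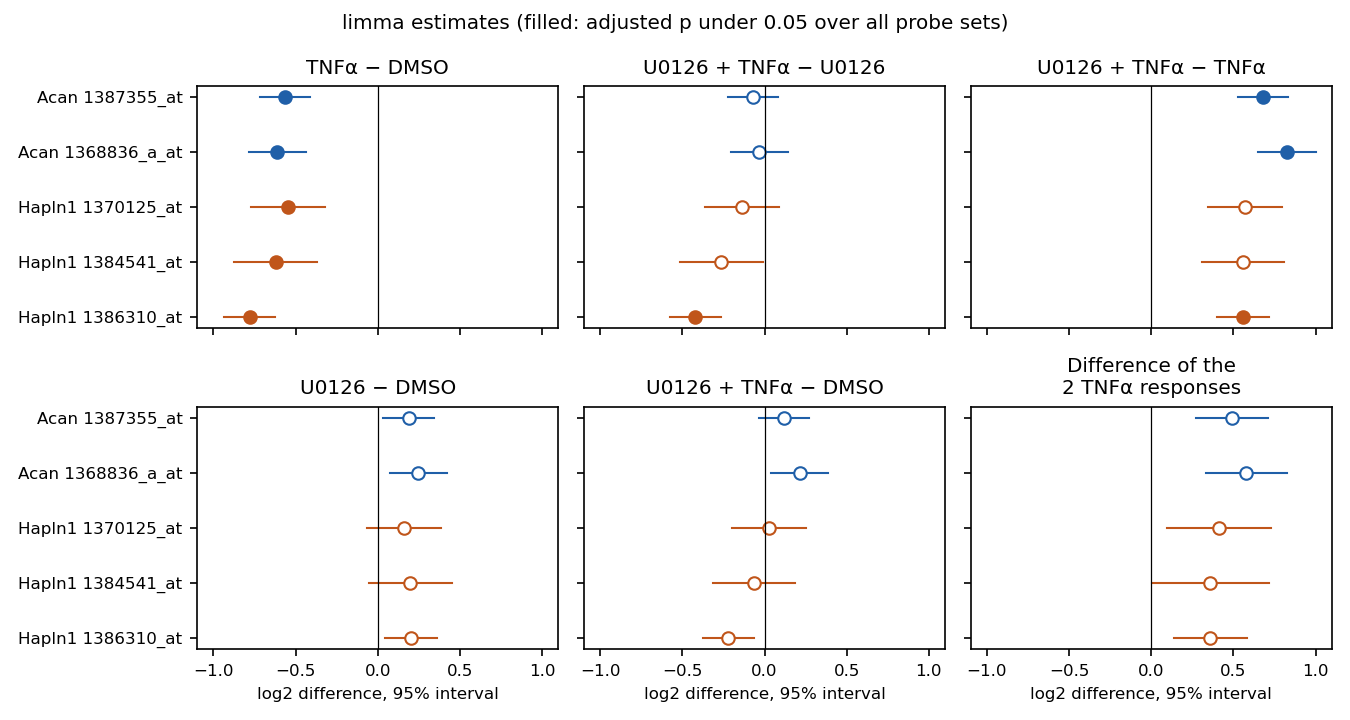
Log2 differences (points) with 95% intervals (bars) from limma for the 5 probe sets of Acan (blue) and Hapln1 (orange) in 6 comparisons, the treatments sharing arrays between panels, with filled points for adjusted p under 0.05. All points of TNFα against DMSO are filled and below 0, 3 of U0126 + TNFα against TNFα are filled and above 0, and 1 of U0126 + TNFα against U0126 is filled.

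By the fold rule of the study, a probe set counts as regulated when TNFα moved it past a fixed fold limit, one way, in each experiment, and as MEK/ERK dependent when TNFα did not do so over U0126. The study chose this limit because aggrecan fell by about that much on these same arrays. A pass of Acan by this rule is therefore no independent result, and it is part of the counts below. The limit falls between the 1.43-fold and 1.46-fold given next. Of the 5 probe sets, 3 were lower by this rule, where 115 of all probe sets were (0.37%). The same 3 were dependent, which can be scored only for probe sets past the rule. Of those 115, 30 were dependent (0.0966% of all probe sets). Acan passed on 1387355_at, lower by 1.50-fold and 1.46-fold and so just inside the limit, and missed on 1368836_a_at, lower by 1.63-fold and 1.43-fold and so just outside. Hapln1 passed on 1384541_at (1.56-fold and 1.52-fold lower) and 1386310_at (1.70-fold and 1.73-fold) and missed on its main probe set (1.58-fold and 1.35-fold). The rule thus split both genes, although all 5 probe sets passed by limma. Without centring the arrays on their medians, 2 probe sets passed the rule, both of Hapln1. The pass of Acan therefore needed that centring. With U0126, the dependent Hapln1 probe set 1386310_at was still lower by 1.41-fold and 1.27-fold.

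The experiments differed for both genes. Acan was 1.84-fold and 2.15-fold brighter in experiment 1 than in experiment 2 on 1387355_at and 1368836_a_at, and Hapln1 2.32-fold, 2.01-fold and 1.76-fold brighter on 1370125_at, 1384541_at and 1386310_at (limma adjusted p from 5.32e-05 to 0.000243). Within single treatments the ratio ran from 1.64 to 2.71. All 5 were called lower in experiment 2, where 15.4% of all probe sets were called lower and 15.5% higher, and between 0.715% and 2.58% of probe sets had a larger shift in either direction. Markers moved alongside. All 6 chondrocyte markers were called lower in experiment 2, their summed intensity with DMSO being 119557 in experiment 1 and 85516 in experiment 2 (over treatments, 93875 to 125569 and 66712 to 93471). Of 7 fibroblast markers 6 were called higher in experiment 2 and 0 lower, their summed intensity with DMSO being 92921 and 116619 (over treatments, 92921 to 97879 and 116619 to 121589). Of 10 macrophage markers 4 were called higher in experiment 2 and 0 lower, with sums of 2492 to 3415 and 2874 to 3570. Of 5 smooth muscle markers 2 were called lower in experiment 2, Tagln and Cnn1, and 0 higher, with a sum under DMSO of 13313 and 8937, and of 5 endothelial markers 1 was called higher, Tek, and 0 lower (692 and 934). Of the 5 hypertrophic and osteoblast markers 0 were called either way by limma (sum under DMSO 1456 and 1459). The part of cell composition in the level shift of Acan and Hapln1 was not tested.

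With TNFα, within an experiment, chondrocyte markers were lower along with Acan and Hapln1. All 6 are also members of the cartilage matrix list read below, so their falls are counted again there. Of all probe sets, 1.78% were called lower and 3.41% higher with TNFα. Summed chondrocyte markers went from 119557 with DMSO to 93875 with TNFα in experiment 1 and from 85516 to 66712 in experiment 2, with 4 of 6 called lower, and stood at 116399 and 84147 with U0126 + TNFα. Col2a1 was at 0.933-fold and 0.907-fold and did not pass (limma adjusted p = 0.273). At 24282 to 32104 it was near the brightest values of the arrays (31196 to 34845 before scaling), where folds can be shrunk. Its small fold therefore does not show that its transcript was unchanged. Summed fibroblast markers were 97879 and 118676 with TNFα, with Pdgfra called higher and Dpt called lower. That sum is mostly made of bright genes such as Col1a1 (28732 to 34888), and Dpt (178 to 1264) adds little to it. Summed macrophage markers went from 2528 to 3415 and from 3190 to 3570, with Cd68 alone of 10 called higher. Summed smooth muscle markers were 13313 with DMSO and 9037 with TNFα in experiment 1 and 8937 and 9517 in experiment 2, so that the experiments moved in opposite directions, with 1 of 5, Cnn1, called lower. Summed hypertrophic and osteoblast markers were 1456 and 1211 in experiment 1 and 1459 and 1229 in experiment 2, and summed endothelial markers 692 and 641, and 934 and 935, with 0 of 5 called by limma in either list and 3 at an unadjusted p under 0.05 in each. With U0126 + TNFα in experiments 1 and 2, the sums were 13801 and 11854 for smooth muscle and 1531 and 1460 for hypertrophic and osteoblast markers. They were 2533 and 2880 for macrophage, 659 and 1057 for endothelial, and 97648 and 121589 for fibroblast markers. The part of cell composition in the fall of Acan and Hapln1 with TNFα was not tested.

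Genes of the surrounding matrix were read from lists that leave Acan and Hapln1 out. Of 19 measured cartilage matrix genes, TNFα lowered 9 and raised 1, the chondroadherin-like gene Chadl (log2 0.51), with a list median of -0.35 where the median over all probe sets was -0.02. Of all probe sets, 1.78% were called lower and 3.41% higher with TNFα. The 9, those other than the brightest named here after their values were seen, were the type IX collagen chains Col9a1 (log2 -0.34) and Col9a3 (-0.35), the type XI chain Col11a2 (-0.50), matrilin-1 (Matn1, -0.59), chondromodulin (Cnmd, -0.80), chondroadherin (Chad, -0.40), Mia (-1.33), Snorc (-0.64) and Clec3a (-1.43). Fmod, a collagen-binding small proteoglycan, was at 0.983-fold and 0.998-fold (limma adjusted p = 0.899). Acan and Hapln1, at -0.55 to -0.78, thus lay below the list median and above its lowest members. The 10 calls became 3 to 6 when any single array was left out and 0 with no replicate block. With U0126 + TNFα against TNFα, 1 of the 19 rose, Cnmd (1.83-fold and 1.64-fold, log2 0.79, limma adjusted p = 0.0331), and 0 fell, with a list median of 0.34 against 0.01 over all probe sets and 13 of the 19 at an unadjusted p under 0.05. The shares of all probe sets called in this comparison were 0.129% higher and 0.126% lower. Leaving out an array gave 0 to 5 calls here, with 5 without the experiment 2 TNFα array and 0 without the experiment 1 TNFα array or any U0126 or U0126 + TNFα array. With U0126 + TNFα against U0126, 1 rose (Chadl, log2 0.81) and 0 fell, where 0.831% of all probe sets were called higher and 0.406% lower.

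Among 14 other genes of hyaluronan binding and synthesis, which include receptors, synthases and proteoglycans of other tissues, TNFα raised 2 and lowered 1. The background with TNFα was 3.41% of all probe sets called higher and 1.78% lower. Tnfaip6, which binds hyaluronan and is induced in inflammation, rose 4.50-fold and 3.03-fold (log2 1.89, limma adjusted p = 0.00735), and the hyaluronan receptor gene Cd44 rose 3.40-fold and 1.67-fold (log2 1.25, limma adjusted p = 0.027). The hyaluronan synthase gene Has2 fell to 0.792-fold and 0.682-fold (log2 -0.44, limma adjusted p = 0.0386). Vcan, the large proteoglycan versican, was at 3.49-fold and 1.20-fold and did not pass (limma adjusted p = 0.114), nor did Habp4 (0.748-fold and 1.04-fold). The list median was -0.13. The 3 calls became 0 without either DMSO array and 1 without either U0126 array, and 0 with no replicate block. With U0126 + TNFα, 0 of the 14 passed by limma against TNFα (2 at an unadjusted p under 0.05, and 3 passing without the experiment 2 TNFα array) and 0 against U0126 (5 at an unadjusted p under 0.05). Over all probe sets, 0.129% were called higher and 0.126% lower against TNFα, and 0.831% and 0.406% against U0126.

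Among 19 proteases and inhibitors that act on aggrecan or on its proteases, TNFα raised 5 and lowered 0, with a list median of 0.11. Of all probe sets, 3.41% were called higher and 1.78% lower with TNFα. The 5 were the metalloproteinases Mmp3 (log2 3.36), Mmp13 (2.76), Mmp12 (1.55) and Mmp9 (1.69) and the inhibitor Timp1 (0.91). The aggrecanase genes Adamts4 (1.40-fold and 0.837-fold, limma adjusted p = 0.716) and Adamts5 (2.50-fold and 1.36-fold, limma adjusted p = 0.0696), named here after their values were seen, did not pass, and Timp2, Mmp14 and Mmp2 were at 0.968-fold and 0.915-fold, 1.05-fold and 0.873-fold, and 1.25-fold and 0.880-fold. The 5 calls became 0 to 2 without any single array other than the experiment 2 TNFα array, 6 without that one, 1 under a robust prior and 0 with no replicate block. With U0126 + TNFα against TNFα, 1 fell, Mmp9 (0.355-fold and 0.254-fold, log2 -1.74, limma adjusted p = 0.0394), and 9 of the 19 had an unadjusted p under 0.05. Of all probe sets, 0.126% were called lower and 0.129% higher in this comparison. Mmp9 did not have the largest fall, since the list ran from log2 -2.63 to 0.30 with a median of -0.13. That 1 call became 5 without the experiment 2 TNFα array and 0 without the experiment 1 TNFα array or any DMSO or U0126 + TNFα array.

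Among 20 genes that build or sulfate chondroitin chains, such as those aggrecan carries, 1 rose with TNFα and 1 fell, with a list median of -0.15. With TNFα 3.41% of all probe sets were called higher and 1.78% lower, so 1 call each way is near that background. Ugdh, which makes the UDP-glucuronate of the chains, rose 1.70-fold and 1.36-fold (log2 0.60, limma adjusted p = 0.0202), and Papss1, which makes the sulfate donor, fell to 0.733-fold and 0.836-fold (log2 -0.35, limma adjusted p = 0.0399). Bpnt2 was at 0.990-fold and 0.977-fold. The 2 calls became 0 or 1 without any single array, 4 under quantile normalization and 0 with no replicate block. With U0126 + TNFα against TNFα, 0 of the 20 passed by limma and 6 had an unadjusted p under 0.05, with a list median of 0.08. Few probe sets of any gene passed there (0.129% higher and 0.126% lower).

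Of 20 listed transcription regulators, among them regulators of cartilage genes and the Egr family, 16 were measured. Sox9, which the study names as an inducer of Acan and Hapln1, was not among those measured. With TNFα 1 rose (Nab1, which represses Egr proteins, log2 0.56, limma adjusted p = 0.00506) and 1 fell (Wwp2, a ubiquitin ligase, 0.656-fold and 0.700-fold, log2 -0.56, limma adjusted p = 0.0213). These counts are near the background of 3.41% of all probe sets called higher and 1.78% lower. Egr1, which encodes Egr-1, was at 1.10-fold and 0.779-fold after 24 hours of TNFα (limma adjusted p = 0.69) and fell to 0.493-fold and 0.321-fold with U0126 + TNFα against DMSO (log2 -1.33, limma adjusted p = 0.0124). Against U0126, U0126 + TNFα left all 16 regulators between log2 -0.29 and 0.41. Egr1 was thus lower with U0126 alone too, a comparison in which 0 of the 16 passed by limma. Egr2 alone of the 16 fell with U0126 + TNFα against TNFα (log2 -0.78, limma adjusted p = 0.0397), where 0.126% of all probe sets were called lower. Nab1 rose with U0126 + TNFα against U0126 as well (log2 0.41, limma adjusted p = 0.0296), where 0.831% of all probe sets were called higher. The 2 calls with TNFα became 1 without the experiment 1 DMSO or TNFα array, 3 without the experiment 2 TNFα array and 0 with no replicate block, while the 1 call against TNFα became 3 without the experiment 2 TNFα array and 0 without any other. Trps1 and Sp1 were at 1.12-fold and 0.973-fold and at 1.11-fold and 1.01-fold with TNFα.

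Against DMSO, U0126 + TNFα called 9 genes of these lists, and 0 with no replicate block. The lists held 19, 14, 19, 20 and 16 measured genes, in the order given above. Over all probe sets, 2.17% were called higher and 0.954% lower in this comparison. Chadl (log2 0.97), Ugdh (0.50) and Nab1 (0.48) rose. Mia (-0.68), Chad (-0.41), the hyaluronan receptor gene Lyve1 (-0.69), the aggrecanase-family gene Adamts9 (-0.60), Egr1 and Egr2 (-0.95) fell. Mia and Chad (limma adjusted p = 0.0365 and 0.0488) were thus called lower than DMSO with U0126 + TNFα, where Acan and Hapln1 did not pass. Hapln1 lay between log2 -0.22 and 0.02 by probe set here, and Acan at 0.12 and 0.21. The differences between these genes were not tested.

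**Figure D4:**
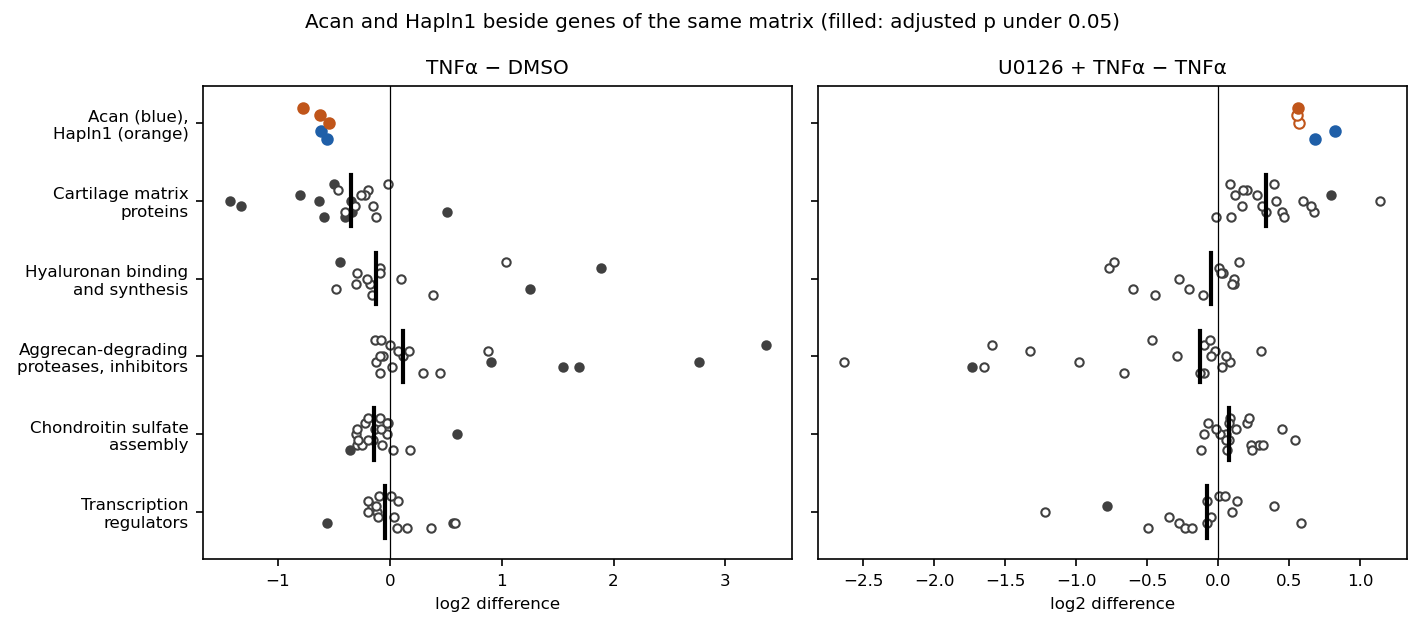
Log2 difference of TNFα against DMSO (left) and of U0126 + TNFα against TNFα (right) for the 5 probe sets of Acan (blue) and Hapln1 (orange) and for the measured genes of 5 lists (grey, 1 probe set a gene, filled where limma adjusted p was under 0.05), with black bars at list medians and both panels sharing the TNFα arrays. The cartilage matrix list has a median of -0.35 on the left and 0.34 on the right, and the Acan and Hapln1 points lie farther from 0 than these medians.

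The genes whose pattern over the 8 arrays was most like that of Acan and of Hapln1 were found by the root mean square difference of log2 intensities, each first centred on its mean within an experiment, over 14216 genes for each of the pair. By main probe sets, Hapln1 was the nearest gene to Acan (0.0667), followed by the non-muscle myosin gene Myh14 (0.0870), Wwp2 (0.0918), Igsf11 (0.0924) and the cationic amino acid transporter gene Slc7a3 (0.0960). The second Acan probe set was at 0.0625 and a flat profile at 0.297. The other Hapln1 probe sets lay farther from Acan, at 0.104 (1384541_at, rank 11) and 0.155 (1386310_at, rank 73). From the main Hapln1 probe set, the second Acan probe set lay at 0.103 (rank 16). For Hapln1 the nearest were Slc7a3 (0.0493), Acan (0.0667), Wwp2 (0.0729), the lipid synthesis regulator Srebf1 (0.0734) and the serine synthesis enzyme Phgdh (0.0749), with the other Hapln1 probe sets at 0.0704 (1384541_at) and 0.148 (1386310_at) and a flat profile at 0.279. Thus 1386310_at was less like the main Hapln1 probe set than the main Acan probe set was. Of the neighbours, Slc7a3 (0.661-fold and 0.799-fold, limma adjusted p = 0.0569) and Phgdh (0.625-fold and 0.884-fold, limma adjusted p = 0.119) did not pass for TNFα against DMSO. This likeness is a description of 8 arrays and has no test.

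**Figure D5:**
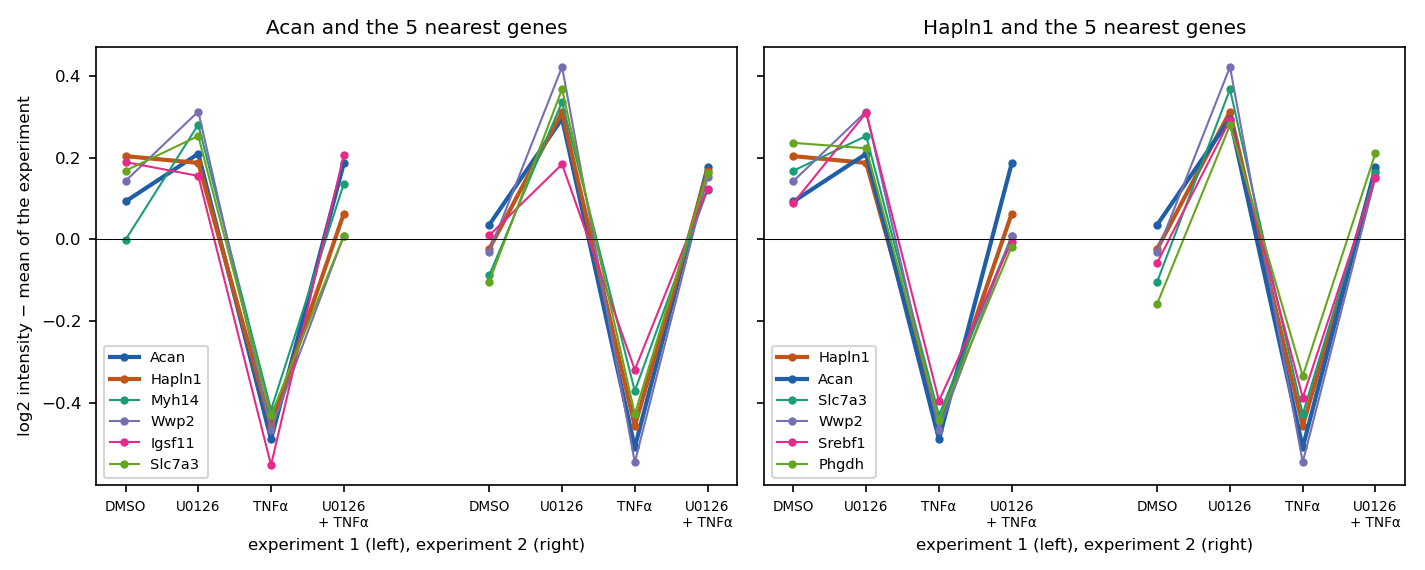
Log2 intensity minus the mean of the experiment for Acan (left) and Hapln1 (right) with the 5 nearest genes to each, over the 4 treatments of experiment 1 and then of experiment 2. Each line has its lowest point with TNFα in both experiments. By their main probe sets, Hapln1 and Acan are among the nearest to each other at a root mean square difference of 0.0667.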

How the data were processed

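Total RNA of 8 cultures was hybridized to RAT230_2.0 arrays, and the authors deposited a summary intensity for each of 31099 probe sets on a linear scale, for which the submitters' notes name RMA, with no version or build given in the sources used here. RMA can shrink the folds of very bright or dim probe sets, to a degree that was not measured here. Columns were matched to samples by their labels. The 57 control probe sets were left out, values were taken as log2 and each array was centred on its median, after the study's per-chip median scaling (array medians were 365.1 to 378.2 and correlations between arrays 0.979 to 0.998). limma 3.58.1 in R 4.3.3 fitted treatment and experiment to 31042 probe sets with eBayes (residual degrees of freedom 3, threshold 0.05 after Benjamini-Hochberg adjustment), and was tested on simulated data. The experiment was the block because the study's methods set each treatment against the DMSO control of its own experiment, and same-numbered arrays of different treatments, taken as deviations from their treatment means, correlated at 0.728 to 0.829 over 6 pairs. Folds were taken within an experiment.

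Probe sets were named from GEO's platform annotation: 20826 had 1 symbol, 436 several and 9780 none, and 20758 of the 20826 matched the RefSeq gene table by Entrez identifier. Promoters came from the RefSeq table of GRCr8. Protein sequences were not used here. From each list the 3 brightest genes and each gene called where at most 5 were called are named, with 1 probe set a gene, that of the highest mean level. Adamts4, Adamts5 and the cartilage genes called with TNFα other than the brightest fall outside this rule and were named after their values were seen. The genes, lists and tests were chosen with earlier results of these data known. Alternatives were another centring, no block, other priors, a filter on dim probe sets, only the arrays compared, the mean over a gene's probe sets, other fold limits, and leaving out each array or experiment.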

Additional observations from a re-analysis of the deposited data

How the results depend on the processing

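Without the replicate block, the paired structure of the experiments went into the spread, and the log2 differences kept their size but not their calls: Acan with TNFα -0.56 (adjusted p = 0.732), Hapln1 with TNFα -0.55 (adjusted p = 0.82) and Acan with U0126 + TNFα against TNFα 0.68 (adjusted p above 0.99). The calls over all probe sets then went from 1611 to 25, 969 to 8, 384 to 5, 79 to 0 and 18 to 0 for TNFα, U0126 + TNFα, U0126 + TNFα against U0126 and against TNFα, and U0126. With only the 4 arrays compared, Acan (-0.56, adjusted p = 0.0514) and Hapln1 (-0.55, adjusted p = 0.0772) missed for TNFα, and Hapln1 passed with U0126 + TNFα against TNFα (0.57, adjusted p = 0.0409). Leaving out an array or an experiment gave -0.70 to -0.39 for Hapln1 with TNFα, 0.67 to 0.69 for Acan with U0126 + TNFα against TNFα, -0.016 to 0.33 for Hapln1 with U0126, and -0.14 to 0.19 for Hapln1 with U0126 + TNFα against DMSO, which was -0.086 for the mean of its probe sets. The near-zero differences turned on single arrays for Acan 1368836_a_at with U0126 + TNFα against U0126 (-0.082 to 0.017, above 0 without the experiment 2 U0126 array) and Hapln1 1384541_at with U0126 + TNFα against DMSO (-0.26 to 0.13, above 0 without the experiment 1 DMSO or U0126 + TNFα array and in experiment 2 alone). The 3 probe sets past the fold rule became 5 at 1.3-fold, 0 at 2-fold, 5 by the geometric mean and 5 in experiment 1 alone. They became 2 with no centring and 4 under quantile normalization. The 3 dependent ones became 4 at 1.3-fold, 0 at 2-fold, 5 by the geometric mean and 5 in experiment 1 alone. They too became 2 with no centring and 4 under quantile normalization. Leaving out an array moved the calls over all probe sets for TNFα to between 456 and 1538, for U0126 + TNFα against DMSO to between 89 and 1061, against U0126 to between 20 and 579, against TNFα to between 0 and 416, for U0126 to between 0 and 12, and for the difference of TNFα responses from 0 to at most 2. For TNFα the cartilage matrix list then had 3 to 6 calls in place of 10, the protease list 0 to 6 in place of 5, the hyaluronan list 0 to 3 in place of 3, the chondroitin list 0 to 1 in place of 2 and the regulators 1 to 3 in place of 2, and each list had 0 with no replicate block. The causes were not tested. Over the main probe sets, 171 recomputed values with a test kept direction and side of the threshold, 15 lost a call, 1 gained it and 3 changed sign. Of the values from a single experiment, which have no test, 22 kept their direction and 2 changed it.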
